A study of Homo sapiens with 6 samples.

Results

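The monocarboxylate transporters (MCTs) and their chaperones were followed as 9 genes of the SLC16 family and its partners, taken by symbol out of 26255 symbols in the deposited table: SLC16A1, SLC16A3, SLC16A5, SLC16A6, SLC16A7, SLC16A9, SLC16A13, BSG and EMB. The rule used the symbols and no measured value, but the members were chosen with earlier results of these data known. The data were RNA-seq of the human breast cancer cell line MDA-MB-231 in 2 groups of 3 libraries. Cells in the shNT group carried a non-targeting short hairpin RNA, and cells in the shGPR81 group carried a hairpin against the lactate receptor GPR81, which is encoded by HCAR1. Both groups were made with lentivirus and selected with puromycin. Which of the study's hairpins was sequenced, and whether the libraries of a group came from separate cultures, is not given in the sources used here, so the p-values measure the spread between these samples, which may be technical.

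MCTs with proton-coupled transport carry lactate and pyruvate together with a proton across the plasma membrane, so they can serve for export from glycolytic cells or for uptake. MCT1 (SLC16A1) is found in many tissues, MCT2 (SLC16A7) has a high affinity for its substrates, and MCT4 (SLC16A3) is known as the exporter of strongly glycolytic cells. Basigin (BSG, also called CD147) brings MCT1 and MCT4 to the membrane and embigin (EMB) is the preferred partner of MCT2. Lactate carried by these proteins is the ligand of GPR81.

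The 6 libraries were of similar depth, a median of 11.8 to 12.6 (in units of 1e6 reads) as estimated from the steps in the FPKM values. FPKM, fragments per kilobase of transcript scaled to the reads mapped, corrects for transcript length, so that levels of different genes can be set side by side. HCAR1, the targeted gene, was measured at 0.968, 1.02 and 1.36 FPKM in shNT and at 0.978, 0.891 and 0.396 FPKM in shGPR81. The groups overlapped, the log2 fold change was -0.57 ± 0.31 (SE) at a limma adjusted p = 0.38, and leaving out shGPR81 replicate 3 moved it to -0.22. All 5 markers of MDA-MB-231 cells on the list used were present at 144.3 FPKM or more in every library. Among 7 luminal markers ESR1, PGR and CDH1 were at 0 in all libraries, and the summed luminal level was 9.78 to 12.3 FPKM in shNT and 3.45 to 4.03 FPKM in shGPR81. This difference was that of TFF1, which averaged 7.35 FPKM in shNT and 0.401 FPKM in shGPR81. Without TFF1 the sum was 2.66 to 3.58 FPKM in shNT and 2.96 to 3.55 FPKM in shGPR81, so that the groups overlapped. Within this sum GREB1 was lower in shGPR81 (means of 0.466 and 0.215 FPKM, adjusted p = 0.089 by limma). GATA3 was higher (1.21 and 1.37 FPKM, adjusted p = 0.571 by limma), and neither gene overlapped between the groups. The part of the difference in TFF1 in the results was not tested.

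The members covered a wide range of levels. BSG was the highest, with a mean of 404.9 FPKM over the 6 libraries and rank 202 among the 14349 genes that passed the filter of 0.1 FPKM in at least 3 libraries. SLC16A3 followed at 101.3 FPKM and rank 914. EMB lay at 10.8 FPKM, and SLC16A13, SLC16A5 and SLC16A7 at 6.15, 5.13 and 2.78 FPKM. SLC16A6 was at 0.181 FPKM, SLC16A1 at 0.0222 FPKM and SLC16A9 at 0. Neighbours in this order did not overlap in FPKM over the 6 libraries, except SLC16A13 with SLC16A5 and SLC16A1 with SLC16A9. Of the 9 genes 7 passed the filter, and SLC16A1 and SLC16A9 did not.

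**Figure D1:**
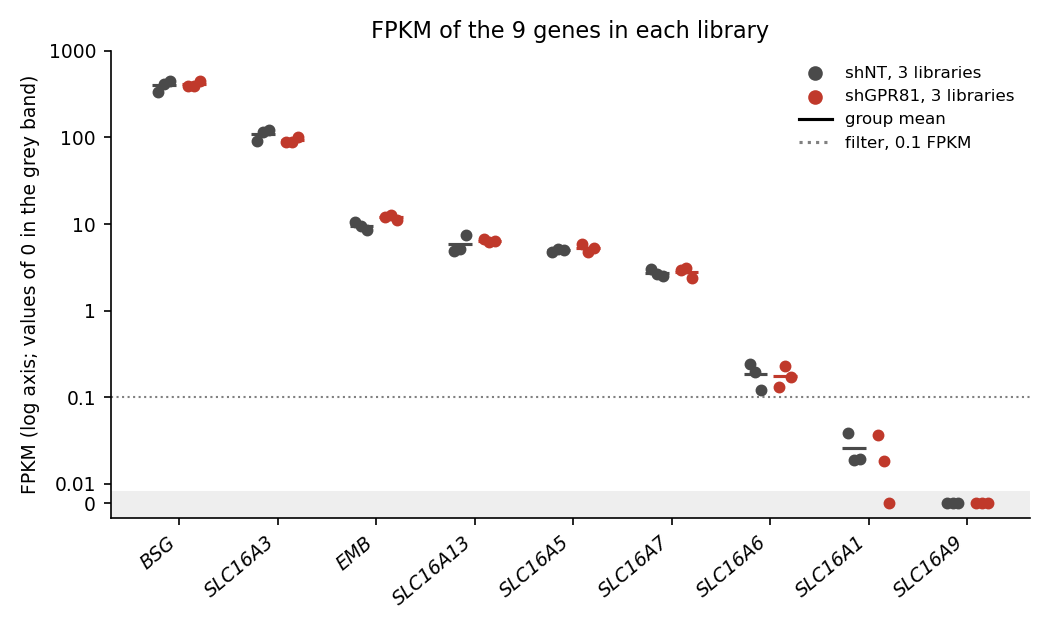
FPKM of each member in every library on a log axis, with values of 0 in the grey band and the group means as bars. BSG and SLC16A3 stood above the rest in all 6 libraries, and SLC16A1 and SLC16A9 lay under the filter of 0.1 FPKM.

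SLC16A3 lies on the plus strand of chr17:80175810-80219005 (GRCh37, GENCODE release 44), where its annotated span meets CSNK1D on the opposite strand. BSG lies on the plus strand of chr19:571277-583494, with BSG-AS1 annotated on the opposite strand. The libraries were stranded, but whether reads were assigned by strand is not given in the sources used here, so that reads of overlapping genes may be shared. To show what lies in front of the 2 most abundant members, 250-base RefSeq windows upstream of annotated starts were searched for ACGTG on either strand, the core of the element bound by hypoxia-inducible factors, and for CACGTG, the E-box known for MYC, which holds ACGTG and its reverse complement CACGT. Windows were found for 4 members: SLC16A3, SLC16A7, SLC16A9 and BSG. Of 5 windows of SLC16A3, 1 held the core, on the plus strand, at 2 places, 68 and 55 bases before the start. Of 2 windows of BSG, 1 held CACGTG at 193 bases before the start. The following bases are from those windows, outside annotated exons, at chr17:80186668-80186917 for SLC16A3 and chr19:572346-572528 for BSG (GRCh37, plus strand, RefSeq sequence), with the motif letters in capitals.
SLC16A3: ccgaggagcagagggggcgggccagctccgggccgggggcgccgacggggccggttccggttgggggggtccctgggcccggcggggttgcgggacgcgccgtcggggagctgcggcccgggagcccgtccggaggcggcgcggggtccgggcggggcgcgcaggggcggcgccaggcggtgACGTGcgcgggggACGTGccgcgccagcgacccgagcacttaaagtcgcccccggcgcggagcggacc
BSG: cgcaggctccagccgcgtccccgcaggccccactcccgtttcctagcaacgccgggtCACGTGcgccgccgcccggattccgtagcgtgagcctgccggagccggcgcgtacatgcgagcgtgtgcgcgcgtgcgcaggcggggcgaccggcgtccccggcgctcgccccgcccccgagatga
The SLC16A3 stretch held 43 CpG dinucleotides and 83.2% G and C. The BSG stretch held 33 CpG dinucleotides and 77.0% G and C. Over all 35116 windows of this length, 18.5% held ACGTG on either strand and 6.35% held CACGTG. With the hits of both strands added, 7.52% held it at least 2 times, but 1 CACGTG counts as 2 hits there. The share of windows with 2 separate places, as in SLC16A3, was not counted. One window of SLC16A9, which was at 0 in every library, also held CACGTG, and neither window of SLC16A7 held ACGTG on either strand. These matches are a description of the letters in the windows and were not linked to any measurement.

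SLC16A3, the lactate exporter MCT4, was measured at 91.3, 116.5 and 121.2 FPKM in shNT and at 87.9, 89.2 and 101.4 FPKM in shGPR81. The lowest shNT library overlapped with the shGPR81 libraries, whereas the other 2 were above all of them. The means were 109.7 ± 16.1 (SD, n = 3 libraries) and 92.8 ± 7.42 FPKM, and the log2 fold change was -0.23 ± 0.11 (SE) at a limma adjusted p = 0.32. The 95% interval of the fold ran from 0.710 to 1.02, which does not reach a 1.5-fold decrease. Exact permutation (two-sided) gave p = 0.2, and the smallest p that 3 against 3 libraries allow was 0.1.

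SLC16A1, which encodes MCT1, was at the limit of detection in both groups. The FPKM were 0.0392, 0.0191 and 0.0196 in shNT and 0.0366, 0.0185 and 0 in shGPR81, which came from 2, 1 and 1 reads and from 2, 1 and 0 reads. Summed over the libraries this is 4 reads against 3, with a depth-corrected ratio of 0.712 and a 95% interval of 0.104 to 4.21 that covers counting error only. A change in SLC16A1 was therefore not detectable at this depth. The FPKM of SLC16A3 was at least 1555 to 2065 times that of SLC16A1 in a library when SLC16A1 was set to a floor of 3 reads. SLC16A1-AS1 is annotated on the opposite strand and overlaps SLC16A1.

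SLC16A7, the high-affinity MCT2, was at 3.03, 2.68 and 2.53 FPKM in shNT and at 2.95, 3.11 and 2.36 FPKM in shGPR81, and its log2 fold change was 0.03 ± 0.14 (SE) at a limma adjusted p = 0.945. SLC16A13 (MCT13), also described as a lactate transporter, was at 4.94, 5.19 and 7.47 FPKM in shNT and at 6.68, 6.19 and 6.45 FPKM in shGPR81. The groups overlapped in each of these genes, and the log2 fold change of SLC16A13 was 0.16 (SE 0.15, adjusted p = 0.663 by limma). The FPKM of SLC16A13 came from 105, 113 and 159 reads in shNT and 152, 139 and 145 reads in shGPR81, a ratio of 1.10 with an interval of 0.955 to 1.26 for counting error.

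SLC16A5 and SLC16A6 encode MCT6 and MCT7, transporters of other substrates than lactate. SLC16A5 was at 4.78, 5.19 and 5.03 FPKM in shNT and at 5.82, 4.72 and 5.26 FPKM in shGPR81, and its log2 fold change was 0.07 ± 0.10 (SE) at a limma adjusted p = 0.768. SLC16A6, whose locus meets ARSG on the opposite strand, was at 0.240, 0.195 and 0.120 FPKM in shNT and at 0.131, 0.227 and 0.170 FPKM in shGPR81. The groups overlapped in both genes, and SLC16A6 had a fold change of -0.04 ± 0.29 (SE) on the log2 scale, with adjusted p = 0.964 by limma. At this low level the 95% interval of the fold of SLC16A6 ran from 0.606 to 1.56, which still held changes of 1.5-fold in either direction. SLC16A9 (MCT9), a carnitine transporter, was listed at 0 in all 6 libraries.

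Of the chaperones, BSG was at 333.1, 418.1 and 448.4 FPKM in shNT and at 393.7, 393.9 and 442.2 FPKM in shGPR81. The lowest value was that of shNT replicate 1, and the groups overlapped. The means were 399.9 ± 59.8 (SD, n = 3 libraries) and 409.9 ± 27.96 FPKM, with a log2 fold change of 0.04 ± 0.11 (SE) at a limma adjusted p = 0.877. The 95% interval of the fold ran from 0.861 to 1.24, and p was 0.9 by exact permutation (two-sided).

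EMB was the member with groups that did not overlap. Its FPKM were 10.4, 9.57 and 8.63 in shNT and 11.96, 12.7 and 11.2 in shGPR81, so that every shGPR81 library lay above every shNT library. The means were 9.54 ± 0.897 (SD, n = 3 libraries) and 11.98 ± 0.747 FPKM, a fold of 1.26 with an interval of 1.09 to 1.45 and a log2 fold change of 0.33 ± 0.09 (SE) at a limma adjusted p = 0.0894. Exact permutation (two-sided) gave p = 0.1, the smallest that this design allows. Thus, EMB did not pass the threshold, and its fold was below 1.5. EMB lies on the minus strand of chr5:49692026-49739082 (GRCh37) with no annotated gene overlapping it.

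A gene was called when its adjusted p was under 0.05 and its fold above 1.5, and none of the 7 members tested with limma was called, against 2.54% of all genes tested, 1.59% lower and 0.955% higher. At an adjusted p under 0.05 with any fold, which 5.13% of all genes reached, the count of members was also 0. At an unadjusted p under 0.05 by limma it was 1, EMB. The share of all genes at that threshold was not counted, so this count has no background and is not a result about the members. Groups without overlap were found in 1 of 7 members, against 25.6% of all genes. The median log2 fold change of the members was 0.04, and that of all genes tested was 0.008.

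**Figure D2:**
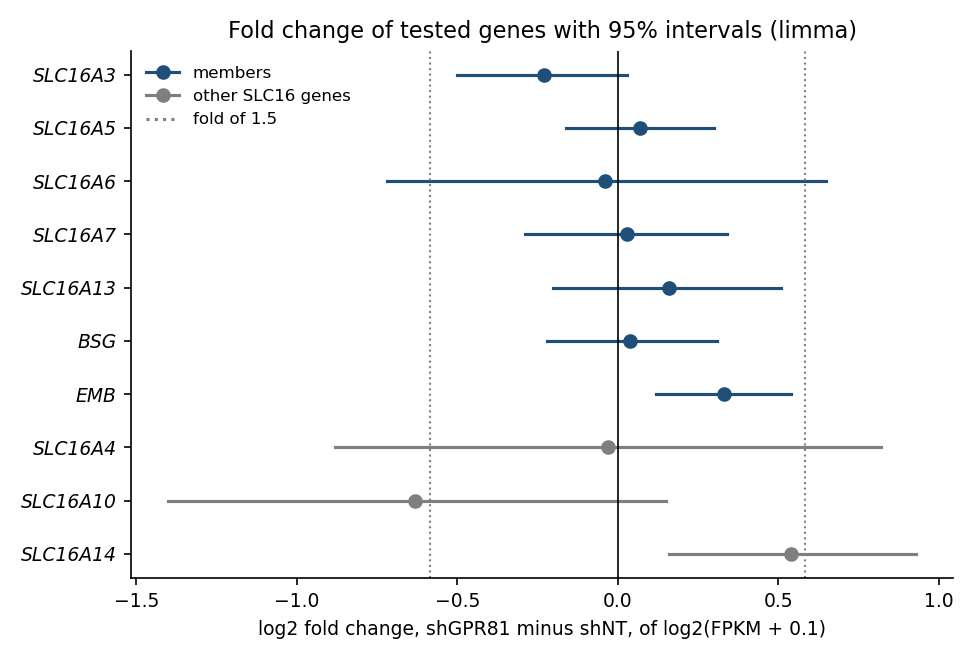
Log2 fold changes of log2(FPKM + 0.1), shGPR81 minus shNT, with 95% limma intervals for the 7 members tested and 3 other SLC16 genes, and dotted lines at a fold of 1.5. The points of all members lay between the dotted lines, from -0.23 for SLC16A3 to 0.33 for EMB.

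The libraries differed with GC content, and several members have a high or low GC content. Whether this accounts for the spread of the members was not tested. In the quartile of genes with the highest GC content (median 60.3%), the median deviation from the gene mean was -0.196 on the log2 scale in shNT replicate 1, 0.049 and 0.111 in the other shNT libraries and -0.038 to 0.092 in shGPR81. In the quartile with the lowest GC content (median 38.7%) it was 0.096 in shNT replicate 1. SLC16A3, BSG and SLC16A13 have a transcript GC content of 62.7%, 62.4% and 62.3%, and EMB and SLC16A7 have 36.4% and 33.8%. The order of the libraries within each group in SLC16A3 was shared by 11.8% of 8601 genes averaging 5 FPKM or more, and among the tested members by BSG.

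A correction for GC content, chosen after the data were seen, gave 104.3, 112.1 and 111.9 FPKM for SLC16A3 in shNT and 87.4, 91.6 and 95.5 FPKM in shGPR81. The groups then did not overlap, and the log2 fold change was -0.26 ± 0.05 (SE) at a limma adjusted p = 0.0134. For EMB it gave 9.57, 9.80 and 9.30 FPKM in shNT and 11.7, 12.4 and 11.6 FPKM in shGPR81, and its log2 fold change was 0.31 ± 0.06 (SE) at a limma adjusted p = 0.0105. Both folds stayed below 1.5, so that neither gene was called. Without shNT replicate 1 and with no correction, the adjusted p by limma was 0.0277 for SLC16A3, at a log2 fold change of -0.36, and 0.0365 for EMB, at 0.39. Without shNT replicate 3 the log2 fold change of SLC16A3 was -0.15. Across all alternatives the adjusted p by limma ranged from 0.0134 to 1 for SLC16A3 and from 0.0105 to 1 for EMB, where the value of 1 was that of a test against a fold of 1.5.

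**Figure D3:**
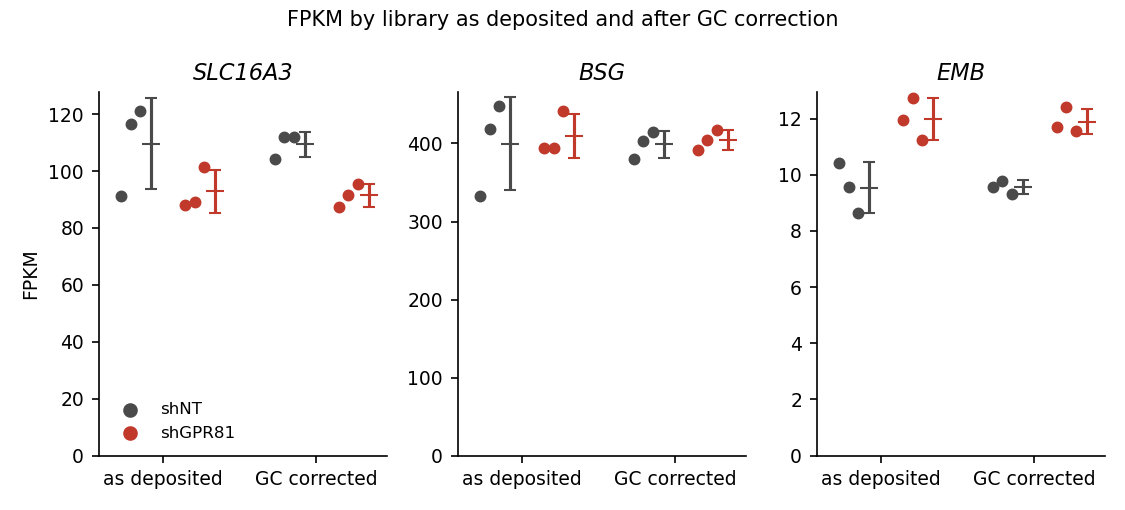
FPKM of SLC16A3, BSG and EMB by library, as deposited and after GC correction, with the mean and SD of 3 libraries per group. After correction the shNT libraries of SLC16A3 lay at 104.3 to 112.1 FPKM, all above the shGPR81 libraries at 87.4 to 95.5 FPKM, and BSG still overlapped.

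Transporters and chaperones were also compared within each library, in 6 ratios and shares given here and in the next paragraph. They were chosen after the values were seen and are given as a description. BSG and SLC16A3 are close in GC content, as given above, and so are EMB and SLC16A7. The ratio of BSG to SLC16A3 in FPKM was 3.65, 3.59 and 3.70 in shNT and 4.48, 4.41 and 4.36 in shGPR81. The shGPR81 libraries were all higher, and the spread in each group was small, with means of 3.65 ± 0.0563 and 4.42 ± 0.0581 (SD, n = 3 libraries). Among 8600 genes averaging 5 FPKM or more, the ratio to BSG separated the groups in 16.3%. These genes were not matched to BSG for GC content, and the share for ratios to SLC16A3 is not given here. The ratio of EMB to SLC16A7 was 3.44, 3.58 and 3.41 in shNT and 4.06, 4.09 and 4.76 in shGPR81, also without overlap, as in EMB alone. Among the transporters, the ratio of SLC16A3 to SLC16A13 was 18.5, 22.5 and 16.2 in shNT and 13.2, 14.4 and 15.7 in shGPR81, lower in all 3 libraries, whereas the ratio of BSG to EMB overlapped between the groups. For ratios other than that to BSG, the share of genes that separate the groups is not given here, so these separations have no background.

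**Figure D4:**
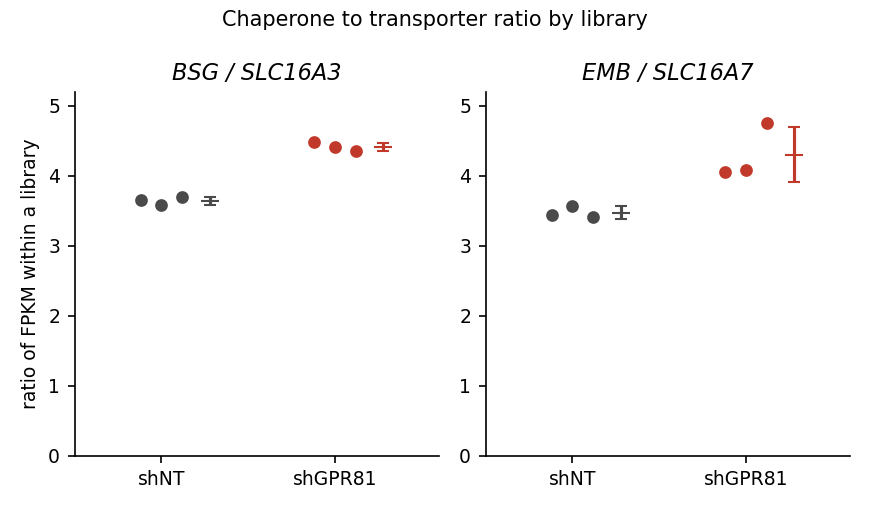
Ratios of chaperone to transporter FPKM within each library, with the mean and SD of 3 libraries per group. BSG to SLC16A3 lay at 3.59 to 3.70 in shNT and at 4.36 to 4.48 in shGPR81.

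SLC16A3 made up most of the SLC16 signal. Of the summed FPKM of 14 SLC16 genes, it took 82.9% to 87.0% in a library. The sum was 107.6, 134 and 139.9 FPKM in shNT and 106, 106 and 118.1 FPKM in shGPR81, so that the groups overlapped. The ratio of BSG to this sum was 3.10 to 3.21 in shNT and 3.71 to 3.75 in shGPR81, without overlap. As SLC16A3 made up most of the sum, this ratio largely repeats that of BSG to SLC16A3 and is not a separate result.

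Of other SLC16 genes, SLC16A14, SLC16A10 and SLC16A4 passed the filter and were not called. SLC16A14, an orphan member, was at 0.882, 1.08 and 0.881 FPKM in shNT and at 1.502, 1.19 and 1.602 FPKM in shGPR81, without overlap (log2 fold change 0.54, SE 0.16, adjusted p = 0.119 by limma). SLC16A10, a transporter of aromatic amino acids, averaged 0.623 FPKM in shNT and 0.373 FPKM in shGPR81 (adjusted p = 0.368 by limma), and SLC16A4 averaged 0.103 and 0.101 FPKM (adjusted p = 0.977 by limma). The read ratios of SLC16A14 and SLC16A10 were 1.510 and 0.597, with counting intervals of 1.239 to 1.845 and 0.400 to 0.883. Such intervals leave out the spread between libraries. SLC16A12, a creatine transporter, stayed below the filter with 6, 7 and 5 reads in shNT and 1, 3 and 4 reads in shGPR81, and its read ratio of 0.422 had a counting interval of 0.159 to 1.02. SLC16A11 had 0 or 1 read in each library, and SLC16A8 (MCT3), known from the retinal pigment epithelium, was at 0.

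Genes that handle the same substrates were taken from lists. Of the other carriers of lactate and pyruvate, the sodium-coupled SLC5A8 and SLC5A12 were at 0 in all libraries, and MPC1 and MPC2, the subunits of the mitochondrial pyruvate carrier, were not called. MPC1 averaged 28.1 and 26.1 FPKM and MPC2 14.7 and 16.4 FPKM in shNT and shGPR81 (adjusted p = 0.321 and 0.221 by limma). Of 15 enzymes of lactate and pyruvate, 14 were tested and 0 were called in either direction, with a median log2 fold change of -0.01. LDHA, which converts pyruvate to lactate, was at 720.8 ± 31.1 FPKM in shNT and 710.7 ± 18.3 FPKM in shGPR81 (SD, n = 3 libraries, adjusted p = 0.891 by limma). LDHB, its partner subunit, was at 764.9 ± 27.5 and 815.9 ± 19.9 FPKM (adjusted p = 0.403 by limma).

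Of 7 carbonic anhydrases and relatives of the chaperones, 5 were tested and 0 were called, with a median log2 fold change of 0.07. CA12, a membrane-bound carbonic anhydrase that handles protons at the cell surface, is named here after its values were seen. Its FPKM were 22.9, 23.1 and 23.6 in shNT and 30.9, 31.6 and 30.6 in shGPR81, without overlap and with a fold of 1.34 (adjusted p = 0.00362 by limma). It was the gene of this list with an adjusted p under 0.05. Of 7 transcription factors known to act on MCT genes, all were tested and 0 were called, with a median of -0.06. EPAS1, which encodes HIF-2alpha and is also named after its values were seen, was at 23.3, 25.1 and 24.4 FPKM in shNT and at 17.8, 19.04 and 18.4 FPKM in shGPR81, a fold of 0.759 (adjusted p = 0.00911 by limma). HIF1A, ARNT, MYC, PPARGC1A and NFE2L2 had adjusted p-values by limma of 0.679 to 0.925. Of the related receptors, HCAR3 was at 0 and HCAR2 was above 0 in 1 library.

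The genes with the pattern most like SLC16A3 over the 6 libraries, among those averaging 5 FPKM or more, were NMT1, ADRM1 and KRT8 (Pearson r of 0.994, 0.993 and 0.993). For BSG they were MBD3, URM1 and ALDOA (0.998, 0.998 and 0.997). As many as 155 genes had an r over 0.95 with SLC16A3 and 366 with BSG, and the points share the libraries and their GC content. For SLC16A1 the likeness to EAF1, SEC61G and PEX3 (0.988, 0.982 and 0.976) rested on 0 to 2 reads per library. As these are bulk samples, fewer cells of a type and less RNA per cell cannot be told apart in any of these levels.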

How the data were processed

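RNA-seq of 3 shNT and 3 shGPR81 libraries (TruSeq stranded mRNA, 75-base single-end reads) was used. The authors deposited FPKM per gene symbol, for which the submitters' processing notes name TopHat2 2.0.13, Bowtie2 2.2.3, SAMtools 0.1.19 and Cuffnorm 2.2.1. The labels name a mouse genome, but the paper names human GRCh37, which was used since the cells are human. After adding 0.1 and taking log2, the groups were tested with limma 3.58.1 (lmFit, eBayes with trend) in R 4.3.3. This used the 14349 genes for which 3 or more libraries reached 0.1 FPKM, and p-values were adjusted by the Benjamini-Hochberg method. Fold changes on this scale understate those of low genes. Reads were recovered as whole multiples of a step (tolerance 0.0001) for 4289 of 15931 genes. Both steps were tested on simulated data. Read intervals are exact Clopper-Pearson at 95%.

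The members and lists were chosen with earlier results of these data known. Named were all members, HCAR1, list genes past both thresholds, LDHA, LDHB, HCAR2, HCAR3, other SLC16 genes by level, and the 3 genes most like SLC16A1, SLC16A3 and BSG. Other list genes, and the ratios, were named after their values were seen. Alternatives were other pseudocounts, filters and scalings, eBayes without trend, treat, a replicate block, leaving out each library and, chosen after the data were seen, a GC correction by a loess curve on the longest GENCODE transcript and the removal of MIR6723, which made up 28.1% to 36.2% of the FPKM sums. Some results on list genes are not reported here.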

Additional observations from a re-analysis of the deposited data

How the results depend on the processing

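None of the 7 members tested was called under any alternative. Over all genes, limma called 228 lower and 137 higher. A pseudocount of 1 gave 142 and 75, treat against a fold of 1.5 gave 46 and 9, and leaving out each library in turn gave 121 to 256 and 65 to 152, fewest lower without shNT replicate 2 and fewest higher without shGPR81 replicate 1. The cause was not tested, except that treat is stricter by construction. Of 111 fold changes of members under alternatives, 102 kept their direction and 9 reversed, all in genes with intervals that include 0. These were BSG at -0.002 with quantile normalization, and on leaving out a library BSG (-0.081 to 0.13), SLC16A5 (-0.004 to 0.15), SLC16A6 (-0.21 to 0.100) and SLC16A7 (-0.050 to 0.14). The single reversed values in between were -0.011 for BSG, 0.083 for SLC16A6, and -0.028 and -0.012 for SLC16A7. The GC correction and the removal of MIR6723 were chosen after seeing the data. At a read tolerance of 3e-05 the reads of 1 member, SLC16A13, were recovered instead of 2.

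Across genes as a whole the replicate numbers hardly paired the libraries: like-numbered libraries had deviations correlated at r = 0.120, 0.022 and 0.006. With the replicate number as a block, 197 genes were called lower, 115 higher and 0 members. The block lowered the SE from 0.113 to 0.071 for SLC16A3, from 0.112 to 0.072 for BSG and from 0.089 to 0.073 for EMB. It was also lower for SLC16A7 and SLC16A13, and higher for SLC16A5 and SLC16A6. Depth limits what can be said of SLC16A1 and SLC16A6, and the number of reads behind most values is not known.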
